A study of Mus musculus with 18 samples.

Results

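Regulatory T cells (Tregs) sorted from infarcted hearts were compared with Tregs sorted from injured quadriceps muscle, the 2 injuries of striated muscle in the series. These were 6 of 18 bulk RNA sequencing libraries, chosen by tissue label, and the counts of both deposited tables were joined by gene identifier. All mice were 10-week-old males of the Foxp3(DTR/GFP) strain, in which Foxp3-expressing cells carry a green fluorescent protein and the diphtheria toxin receptor. Heart Tregs came from mice with myocardial infarction made by ligating the left coronary artery, and muscle Tregs from mice with volumetric loss of quadriceps muscle. Both were taken 7 days after injury, in 3 libraries each, with every library pooled from 3 mice. Spleen Tregs of uninjured mice of the same strain, sex and age (6 libraries, pooling not stated) were the common control. No uninjured heart or muscle was analysed, so that an effect of the tissue and one of its injury cannot be told apart.

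Tregs are CD4 T cells that depend on the transcription factor Foxp3 and restrain immune responses. In lymphoid organs many of them keep the recirculating programme of naive T cells, while those in tissues carry an effector programme with the interleukin-33 receptor, amphiregulin and tissue-homing receptors. Tregs enter both infarcted heart and injured skeletal muscle, where they are known to affect inflammation and repair.

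Library totals lay between 11139361 and 12974890 counts in heart and between 11582403 and 13358526 in muscle. Library names came in 2 styles, here called Endo and Tregs, and heart replicate 1 was the only Endo library of the 6. It also stood apart in composition: the structural RNA gene Rn7sk took 4.08% of its counts, against at most 0.914% in the other 5, and small nucleolar RNAs 0.45%, against at most 0.115%. In spleen the styles went the other way. There Rn7sk took 1.02%, 0.999% and 1.9% of counts in Endo libraries and 4.49%, 4.94% and 3.97% in Tregs libraries. Fold changes below were adjusted for naming style in a model of all 18 libraries, while levels are unadjusted CPM (counts scaled to library size), and the 2 need not match in size. That adjustment is shared by all groups, so it need not remove what set heart replicate 1 apart. Foxp3 stood at 746, 711 and 624 CPM in heart, at 587, 788 and 758 CPM in muscle, and at 344 to 444 CPM in spleen (median 409). The log2 fold change of Foxp3, heart over muscle, was -0.05 with a 95% interval of -0.36 to 0.26, and the libraries overlapped. Heart muscle markers summed to 5.65, 0.708 and 6.3 CPM in heart and 1.09, 1.28 and 0.662 CPM in muscle. In spleen they summed to 6.29 to 15.8 CPM, so that heart did not exceed the spleen range. The skeletal myosin gene Myh4 had 43.8 CPM in muscle replicate 2 and at most 1.08 CPM in the other muscle libraries. It had at most 0.0787 CPM in heart. Summed over the skeletal muscle list, levels were 918 to 1806 CPM for heart libraries, 1445 to 1761 CPM for muscle libraries and 210 to 992 CPM for spleen libraries, mostly from the long genes Ttn and Neb.

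Few genes separated the 2 injuries. Of 15926 genes tested, 72 (0.452%) passed a false discovery rate of 0.05 in edgeR's quasi-likelihood test, 57 of them higher in heart (0.358%) and 15 lower (0.0942%). At an unadjusted p under 0.05 there were 1551 genes (9.74%). Against the same spleen libraries, 3674 genes (23.1%) passed in heart and 3867 (24.3%) in muscle. Those comparisons had 6 libraries on the spleen side, while heart against muscle had 3 on each side. The counts thus do not compare like with like. The median log2 fold change of all genes, heart over muscle, was 0.000644. In 70 of the 72 genes no heart library overlapped a muscle library, and 66 of the 72 were protein coding. Of all genes tested, heart lay wholly above muscle in 6.67% and wholly below in 5.76%. The 72 were selected by their difference between these same libraries, so their lack of overlap is no separate support. The count depended on single libraries: it was 30 without heart replicate 2, 29 without muscle replicate 2 and 27 without muscle replicate 3. It was 76 without heart replicate 1, and 12 genes kept their call whichever of the 12 heart, muscle and spleen libraries was left out.

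**Figure D1:**
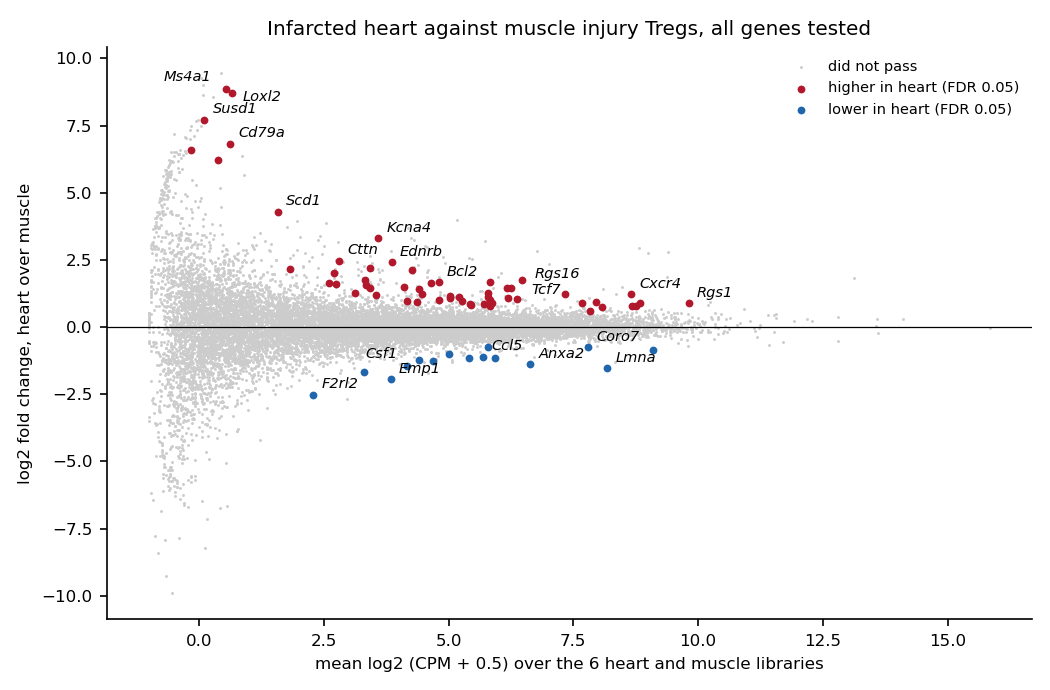
Log2 fold change, heart over muscle, against mean log2 (CPM + 0.5) for each of 15926 genes tested. Coloured points are the 57 genes higher and the 15 lower in heart Tregs at a false discovery rate of 0.05, with 20 of them named.

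Of 21 function lists, that of naive and lymphoid T cell genes had the most members that passed. Of 22 such genes tested, 7 passed as higher in heart (Bcl2, Tcf7, Nsg2, Satb1, Bach2, Actn1 and St8sia1) and 0 as lower. Of all genes, 0.358% passed as higher and 0.0942% as lower. All 22 had a fold change above 0, as had 50.1% of all genes, and their median log2 fold change was 0.90. In 13 of the 22 the heart libraries lay wholly above the muscle libraries, which held for 6.67% of all genes, and in 0 wholly below, which held for 5.76%. The list was drawn partly from genes already known to be low in these injured tissues, and so is not independent evidence of a direction. The number that passed was 3 to 12 over the 24 alternative analyses, and the median 0.65 to 1.02.

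Bcl2 (chr1:106538178-106714274, GRCm38), which protects cells from apoptosis, had 48.6, 37.1 and 60.8 CPM in heart, 18.4, 12.7 and 16.2 CPM in muscle, and 201 to 272 CPM in spleen (median 220). Every heart library lay above every muscle library and below every spleen library. The log2 fold change, heart over muscle, was 1.68 ± 0.23 (SE, adjusted p = 0.000739), and the call held in all 24 alternatives. Tcf7 (chr11:52252371-52283014), the gene of the transcription factor TCF-1 of naive and memory T cells, had 119, 87.6 and 146 CPM in heart, 44.3, 33.9 and 57 CPM in muscle, and 337 to 488 CPM in spleen (median 430). The 3 groups were again separate, with a log2 fold change of 1.45 ± 0.20 (adjusted p = 0.000739) that also held throughout.

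Satb1, an organiser of chromatin in T cells, had 363, 235 and 179 CPM in heart, 120, 110 and 86.2 CPM in muscle, and 357 to 586 CPM in spleen. Heart replicate 1 reached the lower end of the spleen range, and the other heart libraries lay between muscle and spleen. The log2 fold change was 1.22 ± 0.21 (adjusted p = 0.00731; 0.057 without muscle replicate 3). Bach2, a repressor that restrains effector differentiation, had 44.4, 30.8 and 30.9 CPM in heart, 11.9, 8.37 and 18.5 CPM in muscle, and 125 to 164 CPM in spleen. Its log2 fold change was 1.40 ± 0.29 (adjusted p = 0.0354). That call was lost without any single heart library, without muscle replicate 1 or 2 and without spleen replicate 2, with adjusted p up to 0.134. Actn1, which crosslinks actin filaments, had 33.6, 31.9 and 32.9 CPM in heart, 10.9, 14.3 and 18.4 CPM in muscle, and 133 to 198 CPM in spleen. A log2 fold change of 1.23 ± 0.19 (adjusted p = 0.00204) held whichever library was left out.

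Nsg2, known from vesicle traffic in neurons, had a log2 fold change of 1.45 (adjusted p = 0.00731). It had 12.9, 13.5 and 24.6 CPM in heart and 6.06, 5.43 and 7.53 CPM in muscle. St8sia1, which makes the ganglioside GD3, had a log2 fold change of 2.03 (adjusted p = 0.018), with 13.9, 14.3 and 10.7 CPM in heart and 5.89, 1.36 and 2.15 CPM in muscle. Both were separate between heart and muscle, and both lost the call when a single library was left out, Nsg2 without heart replicate 3 or muscle replicate 2 (adjusted p up to 0.0584) and St8sia1 without heart replicate 2, muscle replicate 2 or muscle replicate 3 (up to 0.103). Among members that did not pass, Igfbp4 had 6.59, 4.25 and 13.9 CPM in heart and 0.505, 2.41 and 0.91 CPM in muscle (adjusted p = 0.0608). Foxp1, a transcription factor of T cell quiescence, had an adjusted p of 0.0734, and Ccr7, the receptor that guides T cells into lymph nodes, one of 0.412. Igfbp4, Foxp1 and Ccr7 were singled out after their values were seen.

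Against spleen, 18 of the 22 genes were lower in heart and 20 were lower in muscle, where 8.76% and 10.1% of all genes were lower, in comparisons that share the spleen libraries. The list's median log2 fold change was -1.94 in heart over spleen and -3.07 in muscle over spleen. With upper-quartile scaling the median of all genes shifted to -0.104 in heart over spleen, and the genes passing there split into 1913 higher and 1808 lower, against 2279 and 1395 as reported. In muscle over spleen the same scaling gave 1920 higher and 1964 lower, against 2258 and 1609 as reported.

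Of 10 B cell markers 2 passed as higher in heart, Ms4a1 and Cd79a, where 0.358% of all genes did. Fold changes were above 0 in 8 of the 10, as in 50.1% of all genes, and Cd79b did not pass (adjusted p = 0.313). The B cell list summed to 65, 19.9 and 51.4 CPM in heart, 11, 19.1 and 18.1 CPM in muscle, and 48.2 to 144 CPM in spleen. Heart replicate 2 thus lay close to muscle replicate 2. Ms4a1, the gene of CD20, had 6.12, 1.34 and 5.9 CPM in heart and 0 counts in all muscle libraries. The mean of the heart libraries was at least 55.2-fold higher, against a floor of 3 counts over the muscle group. Cd79a, a chain of the B cell receptor, had 5.46, 3.3 and 3.46 CPM in heart, 1 count in all in muscle, and 2.65 to 9.23 CPM in spleen. Among the naive and lymphoid genes, B cells also express Bcl2 and Bach2, which passed, and Foxp1 and Ccr7, which did not. The part of B cells in the differences of the naive and lymphoid list was not tested. In bulk samples, fewer cells of a type and less RNA per cell cannot be told apart.

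**Figure D2:**
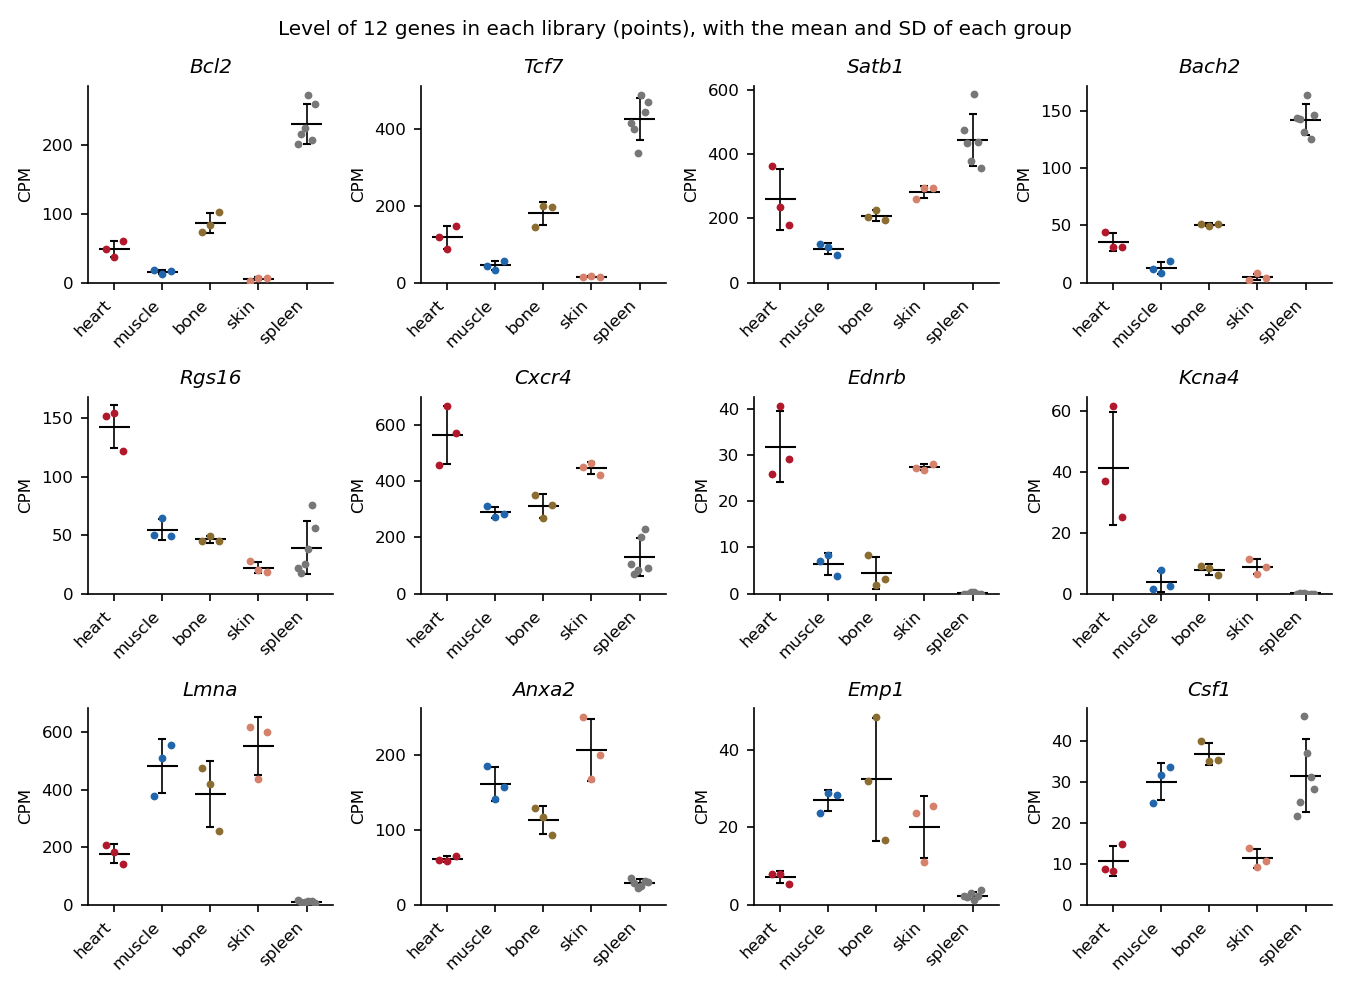
CPM of 12 genes in each library (points), with the mean (line) and SD (bars) of each group: heart, muscle, bone and skin (n = 3 each) and spleen (n = 6). In the top row heart lies between muscle and spleen except for 1 Satb1 library, in the middle row heart lies above muscle, and in the bottom row heart lies below muscle.

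Rgs16 (chr1:153740349-153745468) and Rgs1 (chr1:144242296-144249242), which speed the shut-off of G proteins downstream of chemokine receptors, were the 2 of 28 immediate early genes that passed, both higher in heart. Rgs16 had 152, 155 and 122 CPM in heart, 50.5, 64.8 and 49 CPM in muscle, and 17.7 to 75.5 CPM in spleen. The fold change on the log2 scale was 1.74 ± 0.31 (adjusted p = 0.018; 0.0966 without muscle replicate 3, 0.202 without the naming style term), and muscle overlapped spleen while heart lay above both. Rgs1 had 1104, 1308 and 1007 CPM in heart, 773, 711 and 655 CPM in muscle, and 189 to 475 CPM in spleen. Its log2 fold change of 0.90 ± 0.20 (adjusted p = 0.0411) was lost in 12 of 24 alternatives, among them those without any 1 muscle library, heart replicate 1 or 2, or spleen replicate 4, 5 or 6 (adjusted p up to 0.205 with 1 library left out). Rgs10 also passed (log2 fold change 1.04, adjusted p = 0.0163; up to 0.0966 without heart replicate 2 or 3 or muscle replicate 2 or 3). These were 3 of 11 tested genes of the family, where 0.358% of all genes passed as higher. The family was looked at after the passing genes were seen. In it 5 genes had a fold change above 0 and 6 below, and the median of the 11 was -0.10.

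Cxcr4, the receptor for the chemokine CXCL12, was the 1 of 25 chemokine receptor and recirculation genes that passed. It had 458, 665 and 570 CPM in heart, 311, 272 and 283 CPM in muscle, and 69.7 to 230 CPM in spleen. The 3 groups did not overlap, and the log2 fold change was 1.24 ± 0.25 (adjusted p = 0.025). The call was lost without heart replicate 1 or 2 or muscle replicate 2 or 3 (adjusted p up to 0.119), and also without the naming style term (0.354) and in 3 other alternatives. Cd69, an early activation antigen that holds T cells in tissues, had 420, 705 and 585 CPM in heart and 321, 383 and 423 CPM in muscle, where heart replicate 1 lay below muscle replicate 3. Its log2 fold change was 0.89 ± 0.20 (adjusted p = 0.0363), lost in 10 of 24 alternatives. These were the analyses without heart replicate 1 or 2 or any 1 muscle library (up to 0.146) and others, with adjusted p up to 0.643 where naming style was left out of the model. Ccr9, the receptor for CCL25, had 32.5, 113 and 76.6 CPM in heart and 0.926, 18 and 7.61 CPM in muscle, with an adjusted p of 0.0532. Ccr9 was singled out after its values were seen.

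Kcna4, a voltage-gated potassium channel, had 36.9, 61.5 and 25 CPM in heart, 1.6, 7.92 and 2.4 CPM in muscle, and at most 0.347 CPM in spleen. On the log2 scale the fold change was 3.31 ± 0.56 (adjusted p = 0.00787; up to 0.12 without heart replicate 2 or muscle replicate 3). Ednrb, the endothelin receptor type B, had 25.8, 40.5 and 29.1 CPM in heart, 7.07, 8.37 and 3.81 CPM in muscle, and at most 0.335 CPM in spleen. Heart and muscle were separate for both genes. The log2 fold change of Ednrb was 2.42 ± 0.53 (adjusted p = 0.0417), and its call was lost without heart replicate 2 or 3, any 1 muscle library or spleen replicate 2 (up to 0.253).

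Cttn, the actin-binding protein cortactin, had 10.5, 22.8 and 15.9 CPM in heart, 1.26, 3.09 and 3.97 CPM in muscle, and 0.938 to 3.48 CPM in spleen, so that heart lay above both. Heart over muscle, that was a log2 fold change of 2.47 (adjusted p = 0.0297). Magi1, a scaffold of cell junctions, had one of 2.11 (adjusted p = 0.0404), and Akap12, which anchors protein kinase A, one of 1.27 (adjusted p = 0.0417). The calls of these 3 genes were lost when heart replicate 2 or any 1 muscle library was left out. That of Cttn was also lost without heart replicate 3, those of Magi1 and Akap12 without heart replicate 1, and that of Akap12 without spleen replicate 4 or 5, with adjusted p up to 0.253, 0.283 and 0.206 in the same order. Lztfl1, known for protein traffic at cilia, had 82.7, 108 and 107 CPM in heart, 26.9, 41.6 and 31 CPM in muscle, and 15.4 to 30.6 CPM in spleen. Its difference, a log2 fold change of 1.67 ± 0.23 (adjusted p = 0.000739), held in all 24 alternatives. Loxl2, which crosslinks collagen, had 3.96, 5.11 and 4.64 CPM in heart and 0 counts in every muscle library, so that it was at least 56.7-fold higher in heart against a floor of 3 counts over the muscle group. In spleen it had at most 0.173 CPM.

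Scd1, the stearoyl-CoA desaturase, was the 1 of 33 genes of PPAR-gamma, lipid storage and fatty acid use that passed. It had 21.5, 3.38 and 9.76 CPM in heart, 0.168, 1.13 and 0.248 CPM in muscle, and 5.63 to 18.9 CPM in spleen. Heart lay above muscle in every library and overlapped spleen. Heart over muscle, the log2 fold change was 4.30 ± 0.87 (adjusted p = 0.0363), lost without heart replicate 3, muscle replicate 1 or 3 or spleen replicate 2 or 6 (up to 0.194). Pparg, the transcription factor of fat storage, had 29.6, 60.1 and 61.3 CPM in heart and 22.1, 47.6 and 25.9 CPM in muscle, with overlap and an adjusted p of 0.341. Ctsw, the protease cathepsin W, passed as higher (log2 fold change 1.66, adjusted p = 0.0411; up to 0.215 with 1 library left out, the call being lost without heart replicate 2 or 3, muscle replicate 2 or 3 or spleen replicate 2, 3 or 5). It was 1 of 15 granzyme and cytotoxic granule genes, of which Nkg7 passed as lower.

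Among other genes higher in heart, Nod1, a sensor of bacterial peptidoglycan, had 14, 18.2 and 17.3 CPM in heart and 7.41, 3.39 and 6.7 CPM in muscle. Rhob, a small GTPase of endosomes and the cytoskeleton, had 29.5, 19 and 37.2 CPM in heart and 12.2, 10.9 and 7.95 CPM in muscle. Heart and muscle were separate for both. Nod1 had a log2 fold change of 1.56 (adjusted p = 0.0243; up to 0.119 without heart replicate 2 or 3 or muscle replicate 2 or 3). Rhob had one of 1.5 (adjusted p = 0.0262; up to 0.149 without heart replicate 3 or muscle replicate 2 or 3). Pmepa1, an inhibitor of TGF-beta signalling, had one of 0.86 (adjusted p = 0.0462), and 2 of 12 analyses with 1 library left out kept that call. Tasp1, a protease that cleaves the MLL protein, had one of 0.89 (adjusted p = 0.00339), which held in all 24 alternatives. Pmepa1 and Tasp1 were picked after their values were seen. Prnp, the prion protein, had 6.03, 13.1 and 13.9 CPM in heart and 5.72, 2.49 and 3.31 CPM in muscle, so that heart replicate 1 lay just above the highest muscle library. Its log2 fold change was 1.6 (adjusted p = 0.0462), and the call was kept in 10 of 24 alternatives. Utp14b, a ribosome assembly factor, had 23.1, 13.9 and 13.2 CPM in heart and 5.39, 3.55 and 8.28 CPM in muscle. With a log2 fold change of 1.74 (adjusted p = 0.0427), it kept its call in 9 of 24 alternatives. Of genes with hardly a count in muscle, Susd1 had 2.07, 1.73 and 1.65 CPM in heart and 0 counts in muscle, at least 22.6-fold higher against a floor of 3 counts over the muscle group (adjusted p = 0.00204). Nrp2, a receptor for semaphorins and VEGF, had 1.41, 0.865 and 1.02 CPM in heart and 0 counts in muscle, at least 13.6-fold higher (adjusted p = 0.0312), and kept its call in 14 of 24 alternatives. Pdzk1ip1 had 2.83, 1.89 and 3.62 CPM in heart and 1 count in all in muscle (adjusted p = 0.00302). Susd1 and Pdzk1ip1 each kept the call in 23 of 24 alternatives. All 3 overlapped spleen, where the highest library had 7.24, 2.48 and 4.43 CPM in that order, and they were picked after their values were seen. Among the genes higher in heart that are not described here, the smallest log2 fold change was 0.61, that of the pseudogene Gm11478, and heart and muscle overlapped for Pou2f2 (adjusted p = 0.0445).

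Ribosomal protein genes and immune-associated GTPases had fold changes above 0 in most members. Of 82 cytosolic ribosomal protein genes 75 had a fold change above 0 (50.1% of all genes), with a median log2 fold change of 0.33. Rpl13 (0.84) and Rps24 (0.78) were the 2 that passed as higher, where 0.358% of all genes did. Both share sequence with pseudogenes, between which reads may have been split. All 8 Gimap genes, GTPases of lymphocyte survival, had a fold change above 0, and Gimap5 (0.77) and Gimap6 (0.75) passed. Rpl13 lost its call without heart replicate 3 or muscle replicate 2 or 3, and Rps24 also without heart replicate 2 (adjusted p up to 0.119 and 0.153). Gimap5 lost it without heart replicate 2, muscle replicate 1 or 2 or spleen replicate 5, and Gimap6 without heart replicate 1 or 2 or any 1 muscle library (up to 0.195 and 0.127). Both families were looked at after the passing genes were seen.

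Of the 15 genes lower in heart, Lmna (chr3:88480147-88509956), which encodes the A-type lamins of the nuclear envelope, had 209, 184 and 141 CPM in heart, 377, 512 and 557 CPM in muscle, and 4.64 to 14.6 CPM in spleen. The groups were separate, with heart between muscle and spleen. The log2 fold change was -1.54 ± 0.31 (adjusted p = 0.0316). The call was lost without any 1 heart library and without muscle replicate 2 or 3 (up to 0.145). Lmna was the 1 of 4 lamin genes tested that passed, a family looked at after it was seen. It was also the 1 of 26 tissue effector Treg genes that passed, a list chosen with earlier results known. Of all genes, 0.0942% passed as lower. All 26 were higher than in spleen in both heart and muscle, where 14.3% and 14.2% of all genes were.

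Anxa2 (chr9:69453620-69491795), a membrane-binding annexin, had 59.5, 58.5 and 65.5 CPM in heart, 185, 140 and 157 CPM in muscle, and 22.4 to 35.9 CPM in spleen. A log2 fold change of -1.38 ± 0.19 (adjusted p = 0.000739) held in all 24 alternatives. Anxa6 was also lower (-0.84, adjusted p = 0.0297; up to 0.166 without heart replicate 1 or 2 or muscle replicate 2 or 3). Of 9 annexins tested, a family looked at after these were seen, 7 had a fold change below 0 (49.9% of all genes). As lower 2 passed, where 0.0942% of all genes did. Emp1 (chr6:135362545-135383173), an epithelial membrane protein, had 8, 8.02 and 5.35 CPM in heart, 23.7, 28.7 and 28.4 CPM in muscle, and 1.21 to 3.8 CPM in spleen. Its log2 fold change was -1.95 ± 0.40 (adjusted p = 0.0266), lost without heart replicate 2 or 3 or muscle replicate 2 or 3 (up to 0.126). F2rl2 (chr13:95696853-95702739), a thrombin-responsive protease-activated receptor, had 2.17, 3.22 and 0.472 CPM in heart, 7.32, 12.7 and 13.3 CPM in muscle, and 1.77 to 3.09 CPM in spleen. Muscle lay wholly above spleen, while heart overlapped it. The log2 fold change, heart over muscle, was -2.52 ± 0.56 (adjusted p = 0.0404), lost without heart replicate 1 or 3, muscle replicate 2 or 3 or spleen replicate 1 or 5 (up to 0.149).

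Promoter windows of 300 bases (250 before to 50 after the start site, RefSeq, GRCm38.p6) were available for 48 of the 72 genes, and 5 motifs were searched on both strands. The AP-1 motif TGANTCA, the site of Fos and Jun family factors, was found in 4 of 10 windows of genes lower in heart, in 4 of 38 windows of genes higher in heart, and in 7.93% of 27025 windows in all. The 4 windows of lower genes are shown because these genes share the motif, which is in capitals. Those for Lmna (chr3:88503303-88503602, minus strand) and Anxa2 (chr9:69453433-69453732, plus strand) held 1 match each, and those for Emp1 (chr6:135362681-135362980, plus strand) and F2rl2 (chr13:95696670-95696969, plus strand) held 2 each.
Lmna: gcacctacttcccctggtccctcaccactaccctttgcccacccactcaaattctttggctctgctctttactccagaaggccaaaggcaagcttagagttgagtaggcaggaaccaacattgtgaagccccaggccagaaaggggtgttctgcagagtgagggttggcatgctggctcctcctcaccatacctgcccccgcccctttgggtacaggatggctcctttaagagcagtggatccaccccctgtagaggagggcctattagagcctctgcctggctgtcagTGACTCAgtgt
Anxa2: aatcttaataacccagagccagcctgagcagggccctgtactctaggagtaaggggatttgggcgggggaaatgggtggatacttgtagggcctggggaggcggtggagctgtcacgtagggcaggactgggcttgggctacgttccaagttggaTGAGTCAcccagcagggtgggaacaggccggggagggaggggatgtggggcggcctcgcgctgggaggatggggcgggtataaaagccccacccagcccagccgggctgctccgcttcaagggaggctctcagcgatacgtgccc
Emp1: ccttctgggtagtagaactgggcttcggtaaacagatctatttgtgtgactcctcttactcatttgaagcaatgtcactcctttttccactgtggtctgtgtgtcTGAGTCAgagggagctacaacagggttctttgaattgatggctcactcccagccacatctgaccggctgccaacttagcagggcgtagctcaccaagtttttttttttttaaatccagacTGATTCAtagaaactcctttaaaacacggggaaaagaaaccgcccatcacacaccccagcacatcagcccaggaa
F2rl2: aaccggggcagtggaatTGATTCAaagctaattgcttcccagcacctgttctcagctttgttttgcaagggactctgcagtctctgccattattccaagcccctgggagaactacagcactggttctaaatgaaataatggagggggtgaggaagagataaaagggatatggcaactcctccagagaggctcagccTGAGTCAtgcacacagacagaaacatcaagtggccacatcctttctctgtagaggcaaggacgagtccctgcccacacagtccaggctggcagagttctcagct
Counted from the start site, the matches lay at position 39 in Lmna, -95 in Anxa2, -145 and -25 in Emp1, and -233 and -54 in F2rl2. The start sites used lay inside the gene bodies given above. That of Lmna lay farthest inside, since the gene on the minus strand starts at 88509956 and its window ended at 88503602. Each of the 48 genes was given the listed window nearest its gene start. The 27025 windows in all were the first listed for each gene, so these shares were not drawn alike. Of the other motifs, CTTTGAT (TCF/LEF) was in 1 of 38 windows of higher genes, TGACGTCA (CRE) in 1 of 38, the NF-kB motif in 0 and TGGAAA (NFAT) in 8, and they occurred in 0, 0, 0 and 2 of the 10 windows of lower genes. In all windows they occurred in 3.72%, 1.88%, 0.0888% and 21.5%. A match describes the letters of a window and is not evidence of binding.

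Csf1, the growth factor of macrophages, had 8.76, 8.26 and 14.9 CPM in heart, 24.9, 31.5 and 33.5 CPM in muscle, and 21.5 to 46 CPM in spleen. Heart lay below both, and muscle overlapped spleen. On the log2 scale the fold change was -1.45 ± 0.28 (adjusted p = 0.0169; up to 0.119 without heart replicate 2 or muscle replicate 2 or 3). Ccl5, a chemokine that attracts T cells and monocytes, had 38.1, 29.7 and 40.8 CPM in heart, 90.7, 65.9 and 62.3 CPM in muscle, and 17.1 to 28.6 CPM in spleen. Heart lay below muscle and above spleen in every library, with a log2 fold change of -1.10 ± 0.21 (adjusted p = 0.0175; up to 0.119 without heart replicate 2 or muscle replicate 1).

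Nkg7, a protein of cytotoxic granules, had 25.4, 29.6 and 30.9 CPM in heart and 68.5, 76 and 46.3 CPM in muscle, with a log2 fold change of -1.16 (adjusted p = 0.0315; up to 0.166 without any 1 heart library or muscle replicate 1 or 2). Gzmb, the granule protease granzyme B, had 264, 233 and 201 CPM in heart and 281, 780 and 417 CPM in muscle. Its log2 fold change of -1.29 did not pass (adjusted p = 0.307). B4galt5, a galactosyltransferase of glycolipid synthesis, had 37.9, 47.6 and 39 CPM in heart and 96.7, 76.9 and 94 CPM in muscle, and its log2 fold change of -1.15 (adjusted p = 0.00705) held in all 24 alternatives. The list of 12 CD8 T and NK cell markers summed to 39.6, 21.5 and 35.6 CPM in heart and 62.9, 43.2 and 34.7 CPM in muscle. Of the 11 tested, 10 had a fold change below 0, as had 49.9% of all genes, and 0 passed. The part of this list in the Ccl5 and Nkg7 differences was not tested. The other 6 genes lower in heart were Plcd1 (log2 fold change -1.68), Fam129b (-1.25), Crybg3 (-1.22), Itfg3 (-1.02), Rab11fip4 (-0.76) and Coro7 (-0.74). Their heart and muscle libraries did not overlap, and their adjusted p ran from 0.00731 for Coro7 to 0.0411 for Fam129b. Each lost its call without muscle replicate 3, among others.

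Apart from the libraries named beside each gene, the choice of model ended calls. Without the naming style term 22 of the 72 were lost, among them Rgs16, Rgs1, Cxcr4, Cd69, Magi1, Akap12, Anxa6, Prnp and Plcd1. With Tregs-style libraries only, 26 were lost, among them Cxcr4, Cd69, St8sia1, Ednrb, Akap12, Ctsw, Nod1, Lmna, F2rl2 and Nkg7. In a fit of heart, muscle and spleen libraries only, 53 were lost, Satb1, Rgs16, Cxcr4, Kcna4, Ednrb, Cttn, Scd1, Lmna, Emp1 and Csf1 among them. A fit of heart and muscle libraries only, without the style term, lost 49, among them Actn1, Bach2, Nsg2, Kcna4, Rgs1, Scd1 and Ccl5. With limma-voom 12 were lost, among them Ms4a1, Cd79a, Nsg2, Nod1 and Scd1. DESeq2, RLE and upper-quartile scaling lost 0 of the 72.

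**Figure D3:**
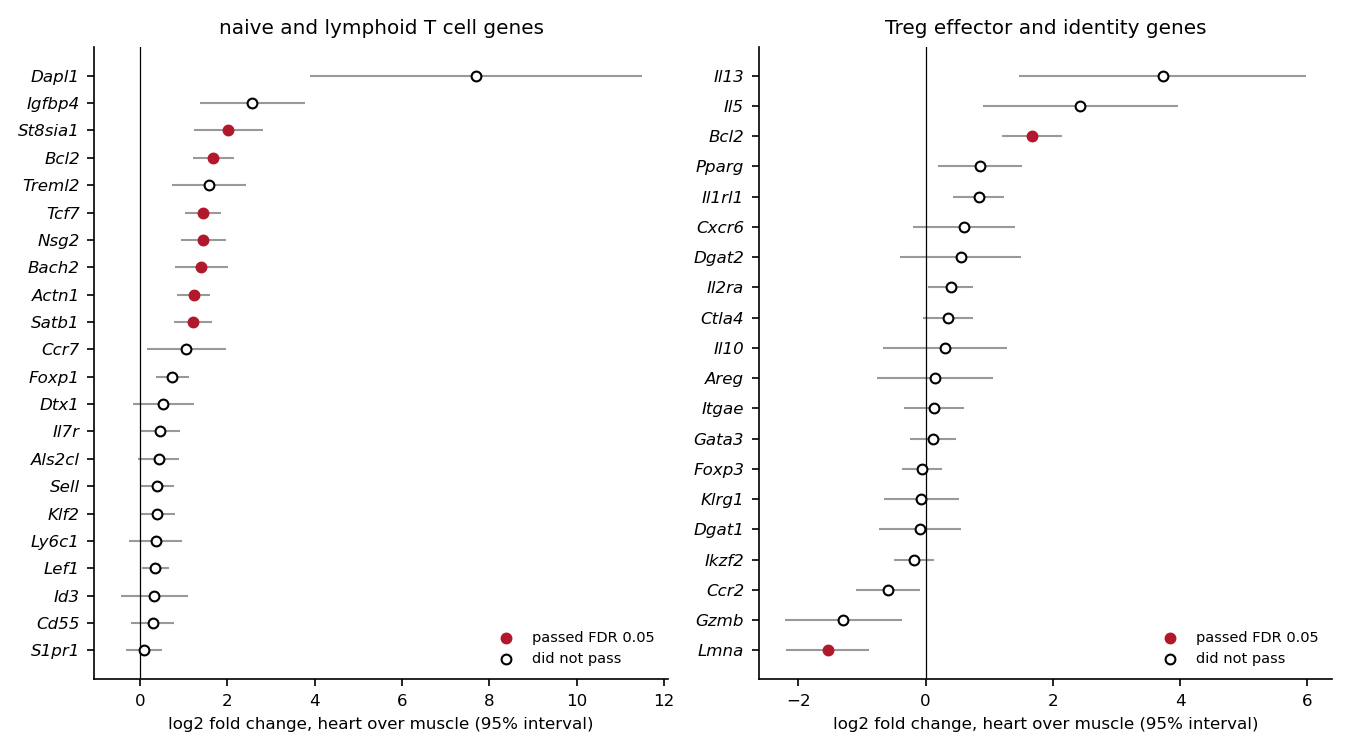
Log2 fold change, heart over muscle, with its 95% interval, for the 22 naive and lymphoid T cell genes (left) and 20 fixed genes (right). The fixed genes are mostly of Treg effector function and identity, with Bcl2 of the left list and genes of fat storage among them. Filled points passed a false discovery rate of 0.05: 7 at left, all above 0, and Bcl2 (also at left) and Lmna at right.

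Most effector genes did not pass between the 2 tissues. Il1rl1 (chr1:40429570-40465415), the interleukin-33 receptor ST2, had 1854, 1951 and 1186 CPM in heart, 720.1, 1049.9 and 798 CPM in muscle, and 45.6 to 82.1 CPM in spleen. The libraries did not overlap, and the log2 fold change of 0.83 (95% interval 0.43 to 1.24) just missed the threshold with an adjusted p of 0.0532. It passed in 11 of 24 alternatives, among them those without heart replicate 1, heart replicate 3, muscle replicate 2 or spleen replicate 1. Il5, a type 2 cytokine, had 16.1, 12.8 and 17.4 CPM in heart and 3.12, 1.96 and 3.31 CPM in muscle, and 0 CPM in spleen. Il13, another, had 4.99, 8.73 and 17.1 CPM in heart and 1.01, 1.81 and 0 CPM in muscle. Neither passed, with adjusted p of 0.199 and 0.176. Both are also genes of type 2 innate lymphoid cells. The 12 markers of those cells, which include Il1rl1, Gata3 and Klrg1 of Tregs, summed to 2907, 3309 and 2264 CPM in heart and 1523, 2371 and 1710 CPM in muscle. Their part in these values was not tested.

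For other effector genes the 95% interval shows how closely this model fixed the difference, gene by gene and without adjustment for the number of genes. Areg, the growth factor amphiregulin, had a log2 fold change of 0.14 (95% interval -0.77 to 1.06), and Il10, the suppressive cytokine, one of 0.30 (-0.67 to 1.28). Gata3, a transcription factor of tissue Tregs, had a narrower interval of -0.25 to 0.47. For the inhibitory receptor Ctla4 it was -0.03 to 0.75, for Il2ra, the interleukin-2 receptor alpha chain, 0.03 to 0.75, and for Ikzf2, the factor Helios, -0.50 to 0.13. The interval of Il2ra leaves out 0, but Il2ra did not pass (adjusted p = 0.457). Ccr2, a receptor of inflammatory chemokines, had 628, 790 and 610 CPM in heart and 656, 1246 and 888 CPM in muscle (adjusted p = 0.404). Ikzf2 had 1535, 1494 and 1292 CPM in heart and 1611, 1707 and 1645 CPM in muscle, without overlap but with an adjusted p of 0.773.

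Over all 21 function lists, the calls not yet given were few. Beside these and the list counts above, 0.358% of all genes passed as higher in heart and 0.0942% as lower. Lineage transcription factors had 3 of 32 higher in heart (Tcf7, Satb1 and Bach2). The complement, extracellular nucleotide and hormone-like genes had 2 of 20 higher, Ednrb and Art2b, an ADP-ribosyltransferase with a near-identical copy that may share its reads. The call of Art2b (log2 fold change 1.65, adjusted p = 0.0169) was lost in 4 of 24 alternatives, among them limma-voom (0.268). None of the members tested passed among Treg and T cell identity (22), cytokines (16), repair growth factors and matrix enzymes (25), integrins and adhesion (23), coinhibitory receptors (19), interleukin receptors (28), cell cycle (35), glycolysis and hypoxia (28), respiratory chain (30), NF-kB and TNF receptor family (23), interferon response (34), heat shock (27) or cholesterol and fatty acid synthesis (23). Cell cycle genes had a median log2 fold change of -0.14, which ran from -0.52 to 0.19 over the alternatives. Their marker Mki67 had 467, 426 and 814 CPM in heart and 1076, 726 and 906 CPM in muscle.

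**Figure D4:**
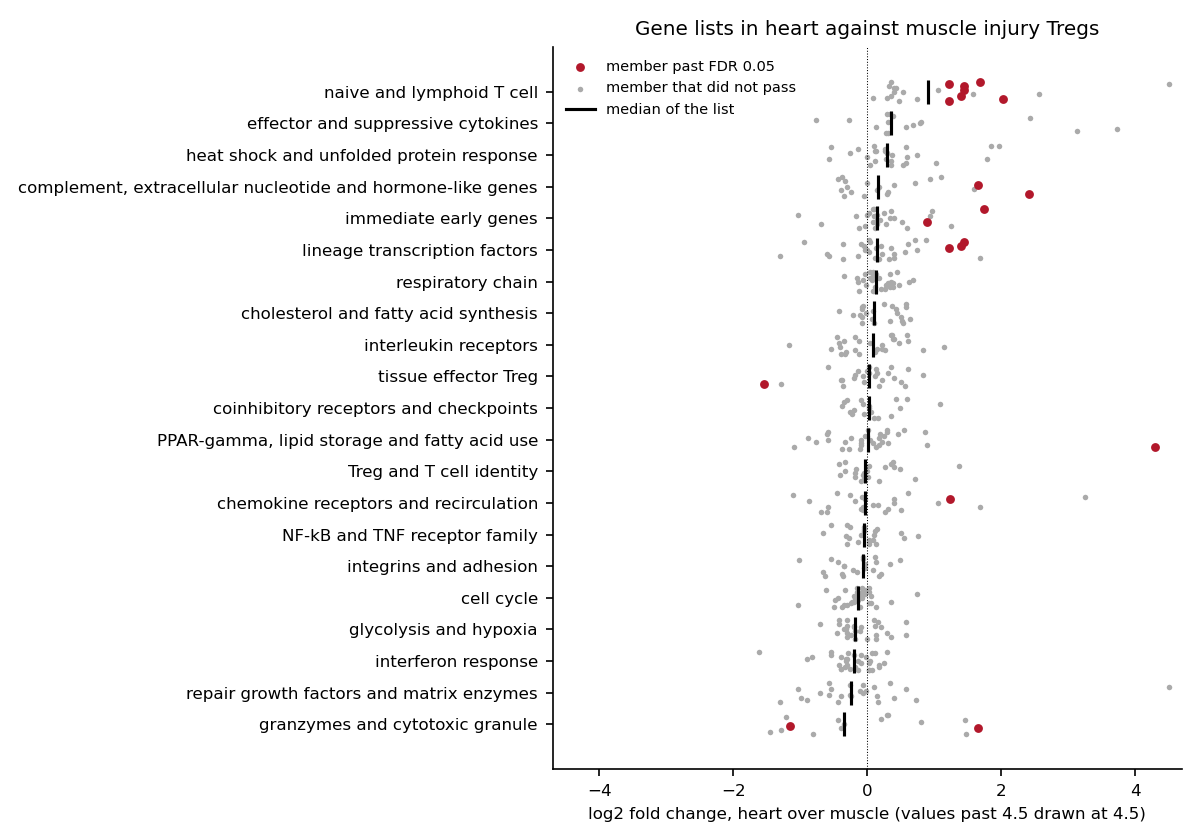
Log2 fold change, heart over muscle, of each tested member of 21 gene lists (points), with the list's median (black line) and members past a false discovery rate of 0.05 in red. The naive and lymphoid list has the highest median, 0.90, and 7 red points.

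Markers of other cells varied between libraries. Macrophage and monocyte markers summed to 122, 18.5 and 20.7 CPM in heart and 30.8, 20.9 and 21.6 CPM in muscle. Neutrophil markers summed to 1.88, 41.5 and 12.8 CPM in heart and 1.43, 0.377 and 0 CPM in muscle. Dendritic cell markers summed to 738, 110 and 338 CPM in heart and 738, 359 and 323 CPM in muscle. Erythroid markers summed to 0 to 9.75 CPM in heart and 0 to 0.331 CPM in muscle, fibroblast markers to 17.2 to 27.5 CPM in heart and 14.5 to 64.5 CPM in muscle, and endothelial markers to 82.4 to 99 CPM in heart and 115 to 137 CPM in muscle. Mast cell and basophil markers summed to 11.9 to 14.7 CPM in heart and 9.68 to 19.9 CPM in muscle. Of these 11 markers, 7 had 0 counts in heart and 8 in muscle. Eosinophil markers summed to 41.1 to 66.7 CPM in heart and 32.2 to 78.7 CPM in muscle. Of these 6 markers, 2 had 0 counts in heart and 5 in muscle. The muscle sum was thus that of Ccr3 alone, which is also among the chemokine receptor genes above. Fat cell markers reached at most 2.91 CPM in heart and 2.36 CPM in muscle, and myoblast markers at most 0.787 CPM in heart and 18 CPM in muscle. Among all marker lists other than that of B cells 0 members passed, and their part in the differences above was not tested.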

How the data were processed

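The authors deposited raw counts of reads for each gene. The submitters' processing notes name STAR, featureCounts, limma and GRCm38 without versions. Annotation release, strandedness and the handling of multi-mapped reads were not given in the sources used, so overlapping, antisense and near-identical genes are uncertain. The 2 tables, joined by gene identifier, held 46078 genes and the same 6 spleen columns, taken once. GENCODE release M21 gave positions for 98.2% of genes.

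Genes were filtered by filterByExpr, scaled by TMM and tested with edgeR 4.0.16 (robust quasi-likelihood F test, R 4.3.3, Benjamini-Hochberg adjustment over all genes, false discovery rate 0.05). The model held group and naming style over all 18 libraries. Only spleen and heart carried both styles. Standard errors were derived from the F statistic. CPM are TMM-scaled. Fitted folds of genes at 0 in muscle depend on a prior count, so bounds use 3 counts over the group and cover counting error only. They take the mean of the heart libraries and leave out the spread among them. Because injured-tissue libraries were pools, p-values reflect variation among pools and not among single mice.

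Members and gene lists were chosen with earlier results of these data known. Named genes were the 15 highest and 15 lowest by fold among genes past the threshold with mean log2 CPM of at least 3 in the higher group and no overlap between heart and muscle libraries, without pseudogenes and clone-named, immunoglobulin, T cell receptor, Y-linked genes and Xist. To these came 20 fixed genes, up to 4 passing members per list and direction (or the 2 most abundant where none passed), and the 2 most abundant and all passing members of 15 marker lists. Genes outside the rule are marked in the text as seen first, or belong to the passing genes. Lists are described by counts and medians, without a set test. The test was tried on simulated counts with known changes. Those counts held no naming style effect and no library set apart, so the trial does not bear on such features here. Alternatives changed the style term, library set, scaling, filter and tool (DESeq2 1.42.0, limma-voom with limma 3.58.1), omitted structural RNA genes, or left out each heart, muscle and spleen library in turn.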

Additional observations from a re-analysis of the deposited data

Results flagged for a closer look

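In 8 of 99 genes checked, 1 spleen library stood far above the other 5, by a test of its gap relative to the range of the group. For normally distributed values chance alone flags about 1 of 20 groups. The test was run on CPM, so that rate need not hold, least of all for genes near 0 such as Kcna4 and Fabp4. These were Il1rl1 at 82.1 CPM, Itgae at 84.3 CPM, Prnp at 15.7 CPM, S100a9 at 13.9 CPM, Fn1 at 4.43 CPM, Col3a1 at 4.3 CPM, Fabp4 at 0.506 CPM and Kcna4 at 0.347 CPM in the highest spleen library. Groups of 3 libraries, heart and muscle among them, were too small for this test.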

How the results depend on the processing

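None of the 72 genes that passed between heart and muscle changed direction in any of 24 alternatives, 7 kept their call in all of them and 65 lost it in at least 1. The number that passed was 20 with heart, muscle and spleen libraries only, 39 with heart and muscle libraries only, 268 with DESeq2 and 380 with no filter on low counts. It ranged from 27 to 104 with 1 library left out. Heart replicate 2, muscle replicate 2 and muscle replicate 3 lost 47, 48 and 50 of the 72 calls when left out, and heart replicate 1 lost 21. Without the naming style term it was 58, and 87 with Tregs-style libraries only. List members that passed numbered 16 as reported, 6 with heart, muscle and spleen libraries only, 34 with DESeq2, 26 with limma-voom, 54 with no filter, and 7 to 19 with 1 library left out. Against spleen, counts stayed within 1.5 times the reported ones, from 2755 to 3811 for heart and 3075 to 4017 for muscle with 1 library left out. With the replicate number as a block in place of naming style, 49 genes passed between heart and muscle. Same-numbered libraries hardly deviated together (correlations 0.0726, 0.0536 and 0.00783), so the numbers were not taken as pairs. The cause of these shifts was not tested.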
